A study of Homo sapiens with 12 samples.

Results

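The CDK inhibitor genes CDKN1A, CDKN1B, CDKN2A, CDKN2B, CDKN2C and CDKN2D were followed through RNA sequencing of 2 established cholangiocarcinoma cell lines. They were chosen by symbol, through the Ensembl identifiers of the count table, and are 6 of its 60651 genes. EGI-1 cells received DMSO vehicle, 0.5 µM decitabine, 200 nM talazoparib or both agents together, and HUCCT1 cells received DMSO vehicle or 1 µM decitabine. All cells were harvested after 72 h, all are given as wild type in the sample labels, and each of the 6 arms holds 2 libraries. Decitabine is a nucleoside that traps and depletes DNA methyltransferases, and talazoparib inhibits and traps PARP enzymes. Each line is a single tumour-derived model grown in culture. The 2 lines received different doses of decitabine, so line and dose cannot be told apart where decitabine effects are compared between them. The names of the count columns also carry a different code for each line. Line and whatever that code stands for cannot be told apart in any comparison between the lines. For talazoparib, the names of the count columns read 50 while the labels read 200 nM.

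The 6 genes encode 2 families of small proteins that hold back the cell cycle. CDKN1A (p21) and CDKN1B (p27) belong to the CIP/KIP family, which binds cyclin-CDK complexes and restrains above all the CDK2 complexes. CDKN2A (p16, and from a separate first exon ARF), CDKN2B (p15), CDKN2C (p18) and CDKN2D (p19) form the INK4 family, which binds CDK4 and CDK6 and keeps the retinoblastoma protein in its active, unphosphorylated state. CDKN1A is a classical transcriptional target of p53, p27 is controlled largely through SKP2-dependent protein degradation, and the neighbouring genes CDKN2A and CDKN2B on chromosome 9 are frequent targets of deletion or promoter methylation in cancer. The study asked how decitabine and talazoparib act together on these cells, and the cell cycle was among its readouts. RNA levels do not report protein levels, which matters most for p27.

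Total counts per library lay between 23139065 and 34965627. The biliary and epithelial markers KRT7, KRT19, KRT8, KRT18, EPCAM and CDH1 were all detected in every library, and the hepatocyte markers ALB and APOA1 together reached at most 7 counts. One library stood apart. EGI-1 combination replicate 2 held 381 counts of the leukocyte gene PTPRC, against 1 to 7 in the other EGI-1 libraries. Over 5 lymphocyte genes (PTPRC, CD3E, CD2, IKZF1 and CCR7, listed after these values were seen) it summed to 968 counts, or 33.1 CPM (the usual count unit scaled to the total of the library), against 1 to 17 counts in the 7 other EGI-1 libraries and, in HUCCT1, 4 and 6 with vehicle and 72 and 76 with decitabine. None of the 5 was at 0 in combination replicate 2, nor in EGI-1 talazoparib replicate 2, which summed to 17 counts. In bulk RNA a few cells with much of a transcript and many cells with little cannot be told apart. Member values that use this library are therefore given with and without it. In HUCCT1 the fibroblast markers COL1A1 and COL1A2 summed to 23.8 and 25.7 CPM in the vehicle libraries and to 149 and 174 CPM with decitabine. Of these sums with decitabine, COL1A2 made up 1.74 and 1.41 CPM. The endothelial marker PECAM1 went there from 0.737 and 0.543 CPM to 3.71 and 3.47 CPM. The 6 biliary and epithelial markers summed to 13008 and 14085 CPM with vehicle and to 8462 and 9491 CPM with decitabine. They did not move alike. KRT7, KRT19, KRT8 and KRT18 were each lower with decitabine, while CDH1 went from 271 and 274 CPM to 491 and 458 CPM. EPCAM held 153 and 142 CPM with vehicle and 139 and 146 CPM with decitabine. The part of these marker lists in the results that follow was not tested.

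The start regions of the members are shown because decitabine acts on DNA methylation, which sits on CG dinucleotides, and because 3 members (CDKN1A, CDKN2C and CDKN2D) carry the largest changes and CDKN2A a contrast between the lines. Methylation itself was not measured in these files. The sequences are RefSeq windows on GRCh38.p14 of 300 bases across an annotated start, most of them upstream of it, given 5′ to 3′ on the strand of the gene, with each CG in capitals.
CDKN1A, chr6:36678464-36678763, plus strand: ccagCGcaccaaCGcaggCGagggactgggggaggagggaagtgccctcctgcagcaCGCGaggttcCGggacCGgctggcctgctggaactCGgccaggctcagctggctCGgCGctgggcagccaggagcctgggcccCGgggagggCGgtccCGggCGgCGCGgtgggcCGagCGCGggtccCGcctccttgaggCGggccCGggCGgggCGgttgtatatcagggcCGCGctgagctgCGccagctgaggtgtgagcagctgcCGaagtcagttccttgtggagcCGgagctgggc
CDKN2C, chr1:50968456-50968755, plus strand: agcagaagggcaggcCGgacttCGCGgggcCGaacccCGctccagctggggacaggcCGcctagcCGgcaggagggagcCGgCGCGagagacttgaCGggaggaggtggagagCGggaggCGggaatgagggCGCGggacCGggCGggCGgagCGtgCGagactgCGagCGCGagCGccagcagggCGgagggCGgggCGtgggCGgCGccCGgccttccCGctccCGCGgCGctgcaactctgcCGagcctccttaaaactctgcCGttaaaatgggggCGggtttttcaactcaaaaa
CDKN2D, chr19:10568930-10569229, minus strand: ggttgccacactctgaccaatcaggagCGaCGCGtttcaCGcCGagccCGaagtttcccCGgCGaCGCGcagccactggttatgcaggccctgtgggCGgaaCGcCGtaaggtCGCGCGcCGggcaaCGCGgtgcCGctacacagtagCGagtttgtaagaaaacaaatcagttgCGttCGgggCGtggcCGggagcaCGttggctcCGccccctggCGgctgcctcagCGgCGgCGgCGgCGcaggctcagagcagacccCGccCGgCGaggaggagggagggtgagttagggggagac
CDKN2A, p16 start, chr9:21974808-21975107, minus strand: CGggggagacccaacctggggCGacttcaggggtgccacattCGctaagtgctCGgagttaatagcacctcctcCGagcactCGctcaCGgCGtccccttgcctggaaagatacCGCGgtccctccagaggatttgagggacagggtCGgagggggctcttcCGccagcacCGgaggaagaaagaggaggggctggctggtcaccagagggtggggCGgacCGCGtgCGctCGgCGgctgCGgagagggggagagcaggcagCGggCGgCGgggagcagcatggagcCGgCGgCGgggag
CDKN2A, ARF start, chr9:21995275-21995574, minus strand: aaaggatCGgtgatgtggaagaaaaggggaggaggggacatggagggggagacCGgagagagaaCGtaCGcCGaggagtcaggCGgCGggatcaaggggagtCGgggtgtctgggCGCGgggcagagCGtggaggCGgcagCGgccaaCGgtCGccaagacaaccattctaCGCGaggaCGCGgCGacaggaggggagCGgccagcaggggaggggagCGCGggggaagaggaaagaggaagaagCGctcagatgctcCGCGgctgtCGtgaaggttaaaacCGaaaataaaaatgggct

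The 6 genes have 9 such windows, of which 7 hold more CG dinucleotides than the median of 14 over 35116 promoter windows. The CDKN2C window printed here holds 37 CG dinucleotides, more than 88.7% of all promoter windows, and the CDKN2D window holds 36, more than 87.3%. The CDKN1A window holds 29, and the p16 and ARF windows of CDKN2A hold 26 and 28. The other 2 windows of CDKN2C hold 8 and 11 and are the only members' windows under the median. Motifs were counted on both strands, overlaps included. The GC box GGGCGG lies in 7 of the 9 windows and in 45.0% of all promoter windows, with 6 copies in the printed CDKN2C window, 4 in CDKN1A and 3 in CDKN2D. The CCAAT box CCAAT lies in 3 windows, those of CDKN1B, CDKN2D and 1 of CDKN2C, and in 34.6% of all. The E-box CACGTG lies in the 2 other CDKN2C windows and in 7.26% of all, and the TATA box TATAAA lies in none of the 9 and in 11.5% of all. The p53 half-site consensus was found in none of the 9 windows and in 6.63% of all, which says only that these letters are not in these windows.

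In EGI-1 given both agents, CDKN1A rose 2.13-fold while CDKN1B and CDKN2C fell. The levels given for a line are CPM scaled within that line (TMM factors). CDKN1A stood at 69.7 and 69.0 CPM in the vehicle libraries and at 149 and 147 CPM in the combination libraries. The arms lay far apart and each pair of libraries lay close together. The log2 fold change was 1.09 (SE 0.075, 95% interval 0.93 to 1.25, adjusted p = 2.2e-08 by the quasi-likelihood test of edgeR, adjusted after Benjamini and Hochberg). It ranked at position 53 by p among 22406 genes tested, of which 18.7% were called in either direction, 11.1% higher and 7.61% lower. These were 2489 higher and 1705 lower genes, and with upper-quartile scaling 2177 were higher and 2244 lower. Without combination replicate 2, the library with lymphocyte transcripts, the log2 fold change of CDKN1A was 1.11 (adjusted p = 8.0e-07).

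CDKN2C, the INK4 member with the clearest fall in this line, stood at 11.5 and 13.5 CPM with vehicle and at 7.55 and 7.93 CPM with the combination. All combination values lay below all vehicle values. The log2 fold change was -0.69 (SE 0.14, adjusted p = 0.0021), and -0.73 without combination replicate 2 (adjusted p = 0.017). Without vehicle replicate 2 the call was lost (log2 fold change -0.57, adjusted p = 0.060). CDKN1B stood at 48.1 and 47.0 CPM with vehicle and at 35.6 and 38.8 CPM with the combination. Its log2 fold change was -0.35 (SE 0.079, adjusted p = 0.0041), and -0.42 without combination replicate 2 (adjusted p = 0.012). That call was lost without vehicle replicate 1 (adjusted p = 0.062) or without combination replicate 1 (adjusted p = 0.060).

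CDKN2D was low in this line, at 7.87 and 7.88 CPM with vehicle and 5.32 and 6.14 CPM with the combination. The groups did not overlap, but the gene did not pass the test (log2 fold change -0.45, SE 0.16, 95% interval -0.80 to -0.11, adjusted p = 0.064). It passed with upper-quartile scaling (adjusted p = 0.045), without the filter on low counts (adjusted p = 0.040) and in a fit of the 4 libraries of both arms alone (adjusted p = 0.023). It was at -0.56 without combination replicate 2 (adjusted p = 0.10). CDKN2A and CDKN2B held no counts in EGI-1 and were not tested there. Of the 4 members tested, 1 was therefore higher and 2 lower with the combination, and their median log2 fold change was -0.40 beside -0.02 over all genes tested.

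**Figure D1:**
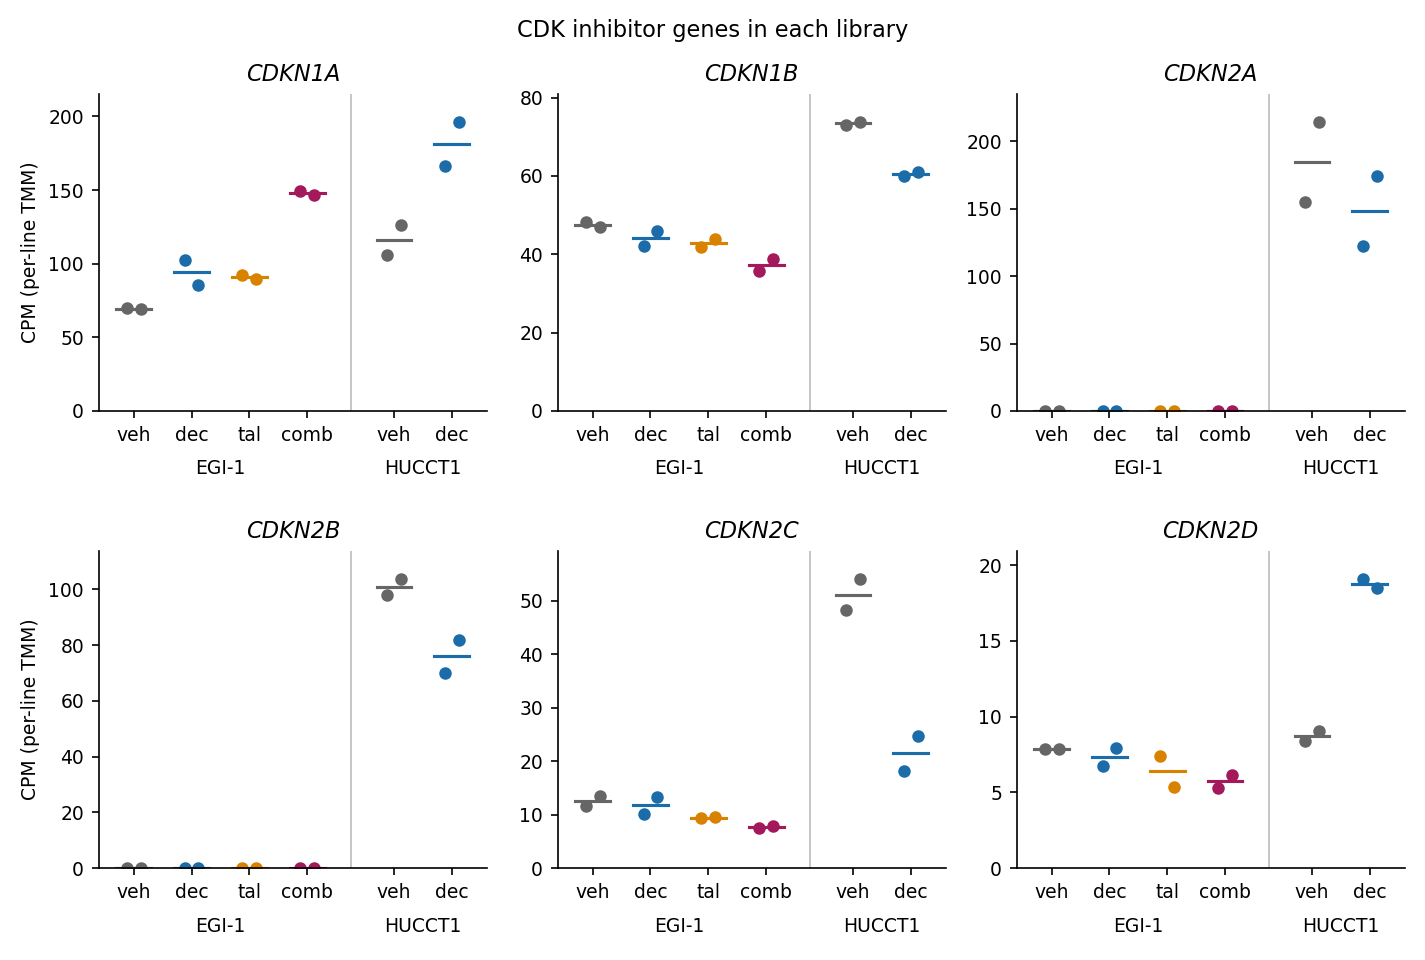
Level of each CDK inhibitor gene in CPM (scaled within each line, axes from 0 and different for each gene) in every library, with one point for each library and a bar at the mean of the 2 libraries of an arm, for vehicle (veh), decitabine (dec), talazoparib (tal) and combination (comb). CDKN1A rises from 69.7 and 69.0 CPM with vehicle to 149 and 147 CPM with the combination in EGI-1, CDKN2A and CDKN2B lie at 0 in all EGI-1 libraries, and CDKN2C falls while CDKN2D rises with decitabine in HUCCT1.

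With each agent alone a single member, CDKN1A, passed the test. With decitabine, CDKN1A stood at 103 and 85.8 CPM, above both vehicle libraries (log2 fold change 0.44, SE 0.076, adjusted p = 0.0090), where 0.544% of all genes tested were called, 0.518% higher and 0.0268% lower. With talazoparib it stood at 92.0 and 89.5 CPM (log2 fold change 0.39, SE 0.076, adjusted p = 0.0052), where 4.12% of all genes tested were called, 2.83% higher and 1.29% lower. Both calls were lost in some of the fits with fewer libraries, while the fold changes stayed positive. Leaving out 1 library at a time, the log2 fold change for decitabine ranged from 0.31 to 0.56. For decitabine the log2 fold change remained 0.44 without vehicle replicate 1 (adjusted p = 0.21), without vehicle replicate 2 (adjusted p = 0.24) and in a fit of the 4 libraries of both arms alone (adjusted p = 0.090). For talazoparib it was 0.10 without vehicle replicate 1, 0.11 without vehicle replicate 2 and 0.053 without talazoparib replicate 1, with log2 fold changes between 0.36 and 0.40.

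The other members did not pass the test with either agent alone. CDKN1B stood at 42.2 and 46.0 CPM with decitabine (log2 fold change -0.11, 95% interval -0.28 to 0.05) and at 41.9 and 43.9 CPM with talazoparib (log2 fold change -0.15, 95% interval -0.31 to 0.02). CDKN2C stood at 10.2 and 13.4 CPM with decitabine, which overlapped vehicle (95% interval -0.37 to 0.20), and at 9.38 and 9.53 CPM with talazoparib, below both vehicle libraries (log2 fold change -0.40, 95% interval -0.69 to -0.11, adjusted p = 0.13). In a fit of the 4 libraries of the talazoparib and vehicle arms alone CDKN2C passed (adjusted p = 0.032). CDKN2D stood at 6.77 and 7.92 CPM with decitabine and at 7.40 and 5.38 CPM with talazoparib (95% intervals -0.44 to 0.24 and -0.66 to 0.03). These single-agent comparisons and that of the combination share the same 2 vehicle libraries.

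Set against each agent alone, the combination again held more CDKN1A. The log2 fold change was 0.65 against decitabine (SE 0.074, adjusted p = 2.4e-05), where 7.68% of genes were called (4.42% higher, 3.26% lower). It was 0.71 against talazoparib (SE 0.074, adjusted p = 2.5e-05), where 1.92% were called (1.36% higher, 0.567% lower). Without combination replicate 2 these were 0.67 (adjusted p = 0.00048) and 0.72 (adjusted p = 0.00047). CDKN2C was lower than with decitabine alone (log2 fold change -0.60, SE 0.14, adjusted p = 0.013), and this call was lost without combination replicate 1 (adjusted p = 0.087), without decitabine replicate 2 (adjusted p = 0.11) or without combination replicate 2 (adjusted p = 0.071). Against talazoparib alone CDKN2C differed by -0.29 (95% interval -0.59 to 0.02, adjusted p = 0.41), and by -0.32 without combination replicate 2 (adjusted p = 0.62). CDKN2D differed by -0.35 against decitabine (95% interval -0.70 to -0.004, adjusted p = 0.23), with the combination libraries below both decitabine libraries. Against talazoparib CDKN2D differed by -0.14 (95% interval -0.49 to 0.21, adjusted p = 0.79), and the libraries overlapped. Leaving out 1 library at a time, combination replicate 2 among them, these differences ranged from -0.47 to -0.23 and from -0.37 to 0.10. CDKN1B differed by -0.24 against decitabine (adjusted p = 0.073) and by -0.21 against talazoparib (adjusted p = 0.25), with the combination libraries below all others in both cases. Without decitabine replicate 1 the first of these passed the test (log2 fold change -0.31, adjusted p = 0.030). Without combination replicate 2 the differences were -0.31 (adjusted p = 0.11) and -0.27 (adjusted p = 0.36).

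The combination was also set against what the 2 agents would give if their log2 effects added up. By edgeR 0 of 4 members passed this test and 1 had an unadjusted p under 0.05, and DESeq2 called 0. The test called 0.161% of all genes, 0.00893% higher and 0.152% lower. The estimate for CDKN1A was 0.26 (SE 0.11, 95% interval 0.04 to 0.49, unadjusted p = 0.024, adjusted p = 1.00). Leaving out 1 library at a time, it ranged from 0.15 to 0.40. The highest value came without decitabine replicate 1, the higher of the 2 decitabine libraries. That was the only 1 of 14 alternative fits that called CDKN1A. For CDKN1B, CDKN2C and CDKN2D the estimates were -0.09 (95% interval -0.33 to 0.14), -0.20 (95% interval -0.62 to 0.22) and -0.04 (95% interval -0.53 to 0.45). Without combination replicate 2 the estimates were 0.28 for CDKN1A, -0.15 for CDKN1B, -0.23 for CDKN2C and -0.15 for CDKN2D, each with an adjusted p of 1.00.

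**Figure D2:**
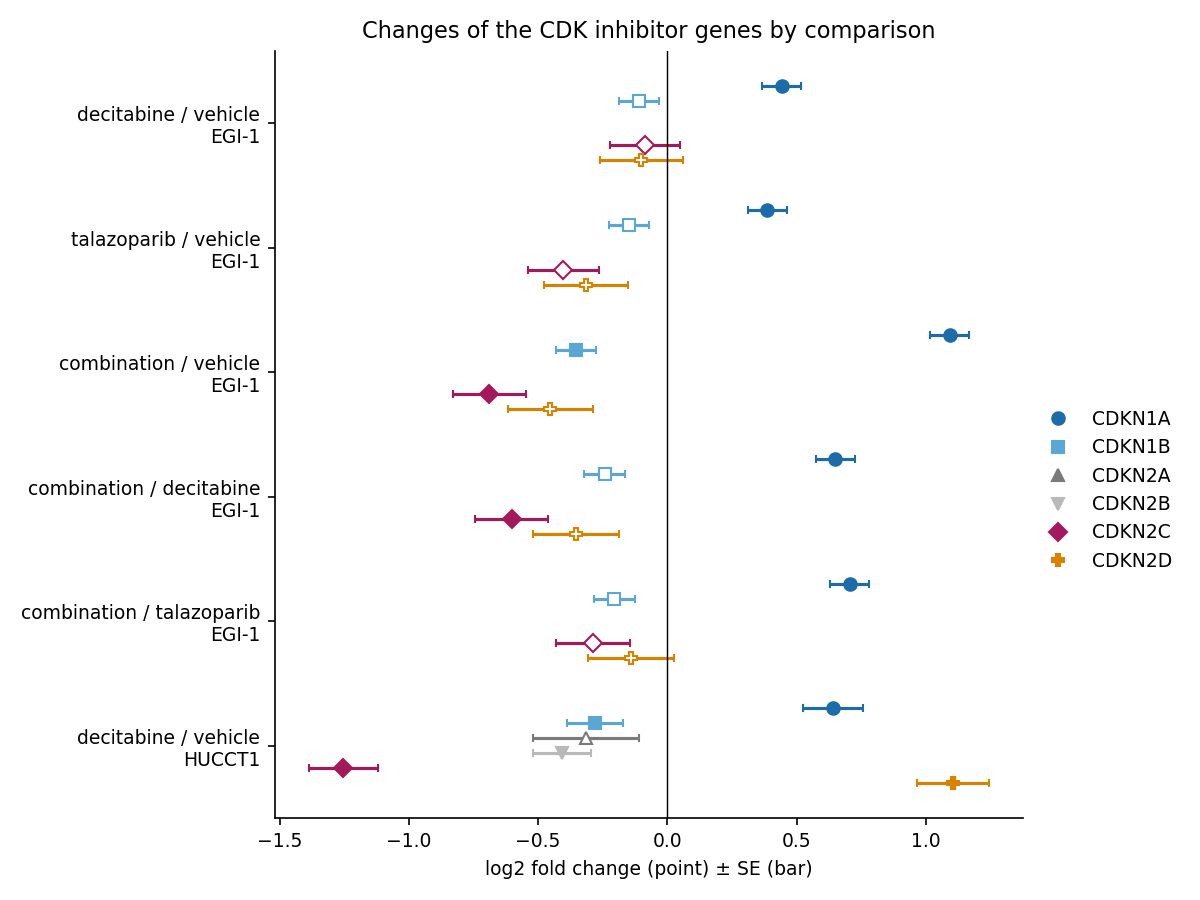
Log2 fold change of each tested CDK inhibitor gene (horizontal axis, bars ± SE of the fit) in the 5 EGI-1 comparisons and in HUCCT1, with filled symbols where the adjusted p was under 0.05 and open symbols where it was not. CDKN1A is filled and right of 0 in every row, between 0.39 and 1.09, CDKN2C reaches -1.25 and CDKN2D 1.11 in HUCCT1, and CDKN2A and CDKN2B appear only in the HUCCT1 row.

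In HUCCT1 5 of the 6 members passed the test with decitabine, 2 up and 3 down, where 33.5% of all genes tested were called, 19.6% higher and 13.9% lower. CDKN2D rose and CDKN2C fell, each more than 2-fold. CDKN2D went from 8.37 and 9.08 CPM with vehicle to 19.1 and 18.5 CPM with decitabine, a 2.15-fold rise with a wide gap between the arms (log2 fold change 1.11, SE 0.14, adjusted p = 6.0e-07). CDKN2C went from 48.2 and 54.0 CPM to 18.2 and 24.7 CPM, with all decitabine values below all vehicle values (log2 fold change -1.25, SE 0.13, adjusted p = 4.7e-08). CDKN1A went from 106 and 126 CPM to 166.5 and 196 CPM (log2 fold change 0.64, SE 0.12, adjusted p = 9.9e-05). These 3 calls held without any 1 of the 4 libraries.

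The neighbours on chromosome 9 were high in HUCCT1. CDKN2B went from 98.0 and 104 CPM to 70.0 and 81.9 CPM (log2 fold change -0.41, SE 0.11, adjusted p = 0.0059), a call that was lost without decitabine replicate 1 (log2 fold change -0.30, adjusted p = 0.14). CDKN2A held 155 and 214 CPM with vehicle and 122 and 174 CPM with decitabine. The arms overlapped, and CDKN2A did not pass the test (log2 fold change -0.32, 95% interval -0.80 to 0.17, adjusted p = 0.30). It passed without the filter on low counts (adjusted p = 0.021), and also without vehicle replicate 1 (log2 fold change -0.55, adjusted p = 0.00077) or without decitabine replicate 2 (log2 fold change -0.60, adjusted p = 0.0011). CDKN1B went from 73.1 and 73.7 CPM to 60.4 ± 0.79 CPM (mean and SD of the 2 decitabine libraries, both below both vehicle libraries; log2 fold change -0.28, SE 0.11, adjusted p = 0.047). This last call lay at the threshold. It was lost without any 1 of the 4 libraries (adjusted p from 0.11 to 0.20), with the size factors of DESeq2 in edgeR (adjusted p = 0.0502), with upper-quartile scaling (adjusted p = 0.073), without the filter on low counts (adjusted p = 0.0503) and with DESeq2 (adjusted p = 0.056). With either other scaling or with DESeq2, 4 members were called.

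The decitabine effect differed between the lines for 2 of the 4 members that both express, in a model over all 12 libraries where 15.9% of genes were called, 8.74% higher in HUCCT1 and 7.2% lower. The difference, HUCCT1 minus EGI-1, was -1.15 for CDKN2C (SE 0.20, adjusted p = 0.00039) and 1.22 for CDKN2D (SE 0.21, adjusted p = 0.00025), and both held without any 1 of the 8 vehicle and decitabine libraries. For CDKN1A it was 0.22 (95% interval -0.07 to 0.51, adjusted p = 0.34) and for CDKN1B -0.15 (95% interval -0.39 to 0.09, adjusted p = 0.44). CDKN2A and CDKN2B, at 0 in EGI-1, gave no such difference. EGI-1 received 0.5 µM and HUCCT1 1 µM decitabine.

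Without treatment the 4 members with counts in both lines were called higher in HUCCT1 than in EGI-1. The comparison called 55.8% of all genes, 28.5% higher and 27.3% lower. CDKN2A and CDKN2B, at 0 counts in EGI-1, entered this fit through their HUCCT1 counts alone, so their calls are not counted here. For this comparison the CPM were scaled over all 12 libraries. CDKN2C stood at 53.01 and 60.2 CPM in HUCCT1 vehicle and at 10.9 and 12.8 CPM in EGI-1 vehicle (log2 fold change 2.25, SE 0.14, adjusted p = 1.7e-11). CDKN1A stood at 117 and 141 CPM against 66.03 and 65.6 CPM (log2 fold change 0.97, SE 0.10, adjusted p = 3.2e-08), and CDKN1B at 80.4 and 82.2 CPM against 45.6 and 44.6 CPM (log2 fold change 0.85, SE 0.082, adjusted p = 1.2e-08). CDKN2D stood at 9.20 and 10.1 CPM against 7.45 and 7.48 CPM, a small difference (log2 fold change 0.37, SE 0.15, adjusted p = 0.039). It was lost with upper-quartile scaling (adjusted p = 0.16), with DESeq2 (adjusted p = 0.11), and without HUCCT1 vehicle replicate 2 (adjusted p = 0.19), EGI-1 vehicle replicate 1 (adjusted p = 0.16) or EGI-1 vehicle replicate 2 (adjusted p = 0.13).

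CDKN2A and CDKN2B were at 0 counts in all 8 EGI-1 libraries, with 218406714 counts in all, which allows a level of up to 0.0137 CPM at a limit of 3 counts. This held in all 4 EGI-1 arms. In HUCCT1 vehicle the lowest CDKN2A value was 152 CPM on library totals, at least 1327-fold higher than the per-library floor of 3 counts in EGI-1 vehicle, which is 0.115 CPM. For CDKN2B the lowest value was 96.4 CPM, at least 840-fold higher. These limits cover counting error only.

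The zero values ran along chromosome 9 (GRCh38, gene positions from GENCODE 44). Between 21000000 and 26000000, 18 genes had at least 20 counts in both HUCCT1 vehicle libraries. From MTAP (21802636 to 21937651), an enzyme of methionine salvage, to LINC01239 (22646200 to 22824213), 11 of these genes followed each other over 1022 kb, and 10 of them, among them CDKN2A (21967752 to 21995301, minus strand), CDKN2B (22002903 to 22009305, minus strand), the antisense RNA CDKN2B-AS1 and DMRTA1, held no counts in any EGI-1 library. MTAP held 6 counts in combination replicate 2, the library with lymphocyte transcripts, and 0 in the 7 others. On one side KLHL9 held 833 to 1229 counts in EGI-1 (mean 38.4 CPM, against 35.8 in HUCCT1 vehicle), and on the other TUSC1 held 214 to 278 (mean 9.26 CPM, against 9.45). Between KLHL9 and MTAP, MIR31HG held 31 to 58 counts in EGI-1, and IFNA1, IFNE, SNORD39 and KHSRPP1 held between 0 and 10. The genes were taken by their HUCCT1 counts, so a gene expressed in EGI-1 alone could not enter the list or interrupt it. The share of all genes chosen in this way that were at 0 in EGI-1 was not computed. The DNA of these cells was not measured in the files.

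**Figure D3:**
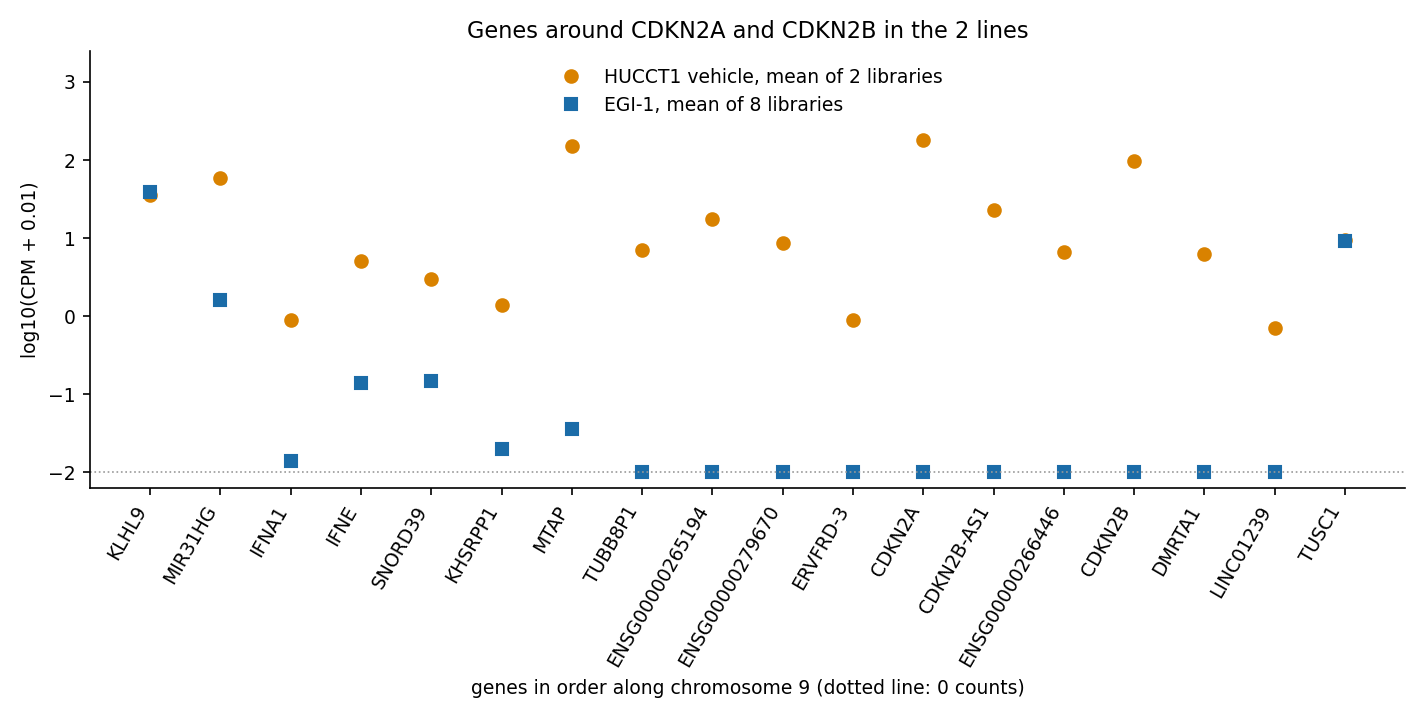
Mean level, as log10 of CPM on library totals plus 0.01, of the 18 chromosome 9 genes with at least 20 counts in both HUCCT1 vehicle libraries, in gene order along the chromosome, in HUCCT1 vehicle (circles, 2 libraries) and EGI-1 (squares, 8 libraries). The flanking genes KLHL9 and TUSC1 have like levels in both lines, while 10 genes including CDKN2A and CDKN2B lie on the line of 0 counts in EGI-1.

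Reads of overlapping genes may be shared, since the use of strand in counting is not stated. CDKN2A shares 593 exonic bases with CDKN2B-AS1 on the opposite strand, which held 624 to 839 counts in HUCCT1. CDKN1A (chr6, 36676460 to 36687337) shares 146 exonic bases with the antisense gene DINOL, which held at most 14 counts in any library. CDKN2C (chr1, 50960745 to 50974634) shares 617 with an antisense RNA that was not among the genes counted, so no level can be given for it. CDKN1B (chr12, 12685498 to 12722369) and CDKN2D (chr19, 10566460 to 10569059, minus strand) share none. Transcripts of CDKN2A and CDKN2B have 31 stretches of 50 bases in common, 0.755% and 0.776% of all their stretches, and no other pair of members shares any.

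Levels of different genes were compared per kilobase of merged exons, with CPM scaled over all libraries. In HUCCT1 vehicle the order was CDKN2A at 52.6 ± 12.5 (SD, n = 2), CDKN1A at 43.0 ± 5.6, CDKN2B at 27.9 ± 1.4, CDKN2C at 18.8 ± 1.7, CDKN1B at 8.78 ± 0.13 and CDKN2D at 6.42 ± 0.43 CPM per kilobase. The values of CDKN2A and CDKN1A overlapped, and the other neighbours in this order did not. In EGI-1 vehicle CDKN1A led with 22.0 ± 0.11, followed by CDKN2D at 4.96 ± 0.014, CDKN1B at 4.87 ± 0.076 and CDKN2C at 3.93 ± 0.44 CPM per kilobase. CDKN1A stood clear of the rest, and the values of CDKN2D (4.95 and 4.97) and CDKN1B (4.93 and 4.82) lay close together. With decitabine in HUCCT1 CDKN1A led at 67.5 ± 8.2 and CDKN2D, at 13.9 ± 0.22, passed CDKN2C at 7.93 ± 1.7. With the combination in EGI-1 CDKN1A reached 47.1 ± 0.50 while CDKN1B, CDKN2C and CDKN2D lay between 2.45 and 3.83 CPM per kilobase. The order depends on the length used. Per kilobase of canonical transcript, CDKN2A led in HUCCT1 with decitabine at 169 ± 42.8 against 95.5 ± 11.6 for CDKN1A, and CDKN2C at 24.1 ± 5.3 stood above CDKN2D at 14.7 ± 0.23. CDKN1A led in all 4 EGI-1 arms by either length. Merged exons of CDKN1B span 9255 bases and its canonical transcript 2411.

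The cyclins and CDKs that these proteins bind were followed in the 2 comparisons with vehicle that had the most calls within a line. With the combination in EGI-1, 4 of 11 tested were higher and 1 lower, beside 11.1% higher and 7.61% lower over all genes. Their median log2 fold change was 0.02 beside -0.02 over all genes. CCND3 (log2 fold change 0.79), CDK2 (0.63) and CCNE1 (0.41) rose, and the mitotic cyclin CCNB2 fell by 0.21 on the log2 scale. Leaving out combination replicate 2 left 3 called, CCND3, CDK2 and CCNE1, with CCNB2 at -0.23 (adjusted p = 0.091). With decitabine in HUCCT1, 1 of 11 was higher and 7 lower, beside 19.6% higher and 13.9% lower over all genes. Their median was -0.43 beside 0.00 over all genes. There CCNB2 (-0.66), CCNA2 (-0.58), CCNE2 (-0.51) and CCNB1 (-0.45) fell. CCND2 was not tested in either, with at most 22 counts in EGI-1, reached in combination replicate 2, and at most 4 in HUCCT1.

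The pocket proteins RB1, RBL1 and RBL2 are the substrates through which these kinases release E2F. With the combination in EGI-1, RBL1 fell (-0.33) and the others did not pass. RBL1 was at -0.39 without combination replicate 2 and did not pass there (adjusted p = 0.063). With decitabine in HUCCT1, RB1 (-1.20) and RBL1 (-0.81) fell and RBL2 did not pass. Among 8 genes of inhibitor turnover, 3 were lower with the combination in EGI-1, DTL (-0.31), CKS1B (-0.26) and SKP2 (-0.25), beside 7.61% of all genes, and the same 3 were lower without combination replicate 2. With decitabine in HUCCT1 2 of 8 were lower, SKP2 (-0.83) and DTL (-0.57), beside 13.9% of all genes. SKP2 and CKS1B take part in the degradation of p27, and DTL in that of p21.

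Of 20 transcriptional regulators of the inhibitors, 19 were tested in EGI-1 and 20 in HUCCT1. With the combination in EGI-1, 5 were higher and 4 lower, led by SP1 (-0.60), MYC (0.51), EZH2 (-0.50) and FOXO1 (0.45), where 18.7% of all genes were called. Of these, 5 higher and 3 lower calls were kept without combination replicate 2. With decitabine in HUCCT1, 7 were higher and 6 lower, led by TP63 (1.99), TP73 (-1.13), ID1 (-0.88) and FOXO1 (0.86), where 33.5% of all genes were called. TP63 was low, with 35 to 185 counts in HUCCT1 and 0 to 11 in EGI-1. SP1 binds GC boxes, EZH2 is the methyltransferase of the Polycomb complex that represses CDKN2A in many cells, and FOXO1 belongs to a family known to activate CDKN1B.

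Among 6 other genes named for CDK inhibition, adjusted p values lay between 0.11 and 0.80 with the combination in EGI-1. With decitabine in HUCCT1, 1 of 5 tested was higher, CDKN2AIPNL (0.58), beside 19.6% of all genes. CDKN1C (p57), the remaining CIP/KIP gene, held 4 to 21 counts in EGI-1 and at most 5 in HUCCT1. Of the 4 chromosome 9 neighbours tested in HUCCT1, MTAP fell (-0.85, SE 0.11, adjusted p = 7.1e-07), and CDKN2B-AS1 (-0.23, adjusted p = 0.19), DMRTA1 (0.04, adjusted p = 0.90) and CDKN2A-DT (0.20, adjusted p = 0.84) did not pass.

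**Figure D4:**
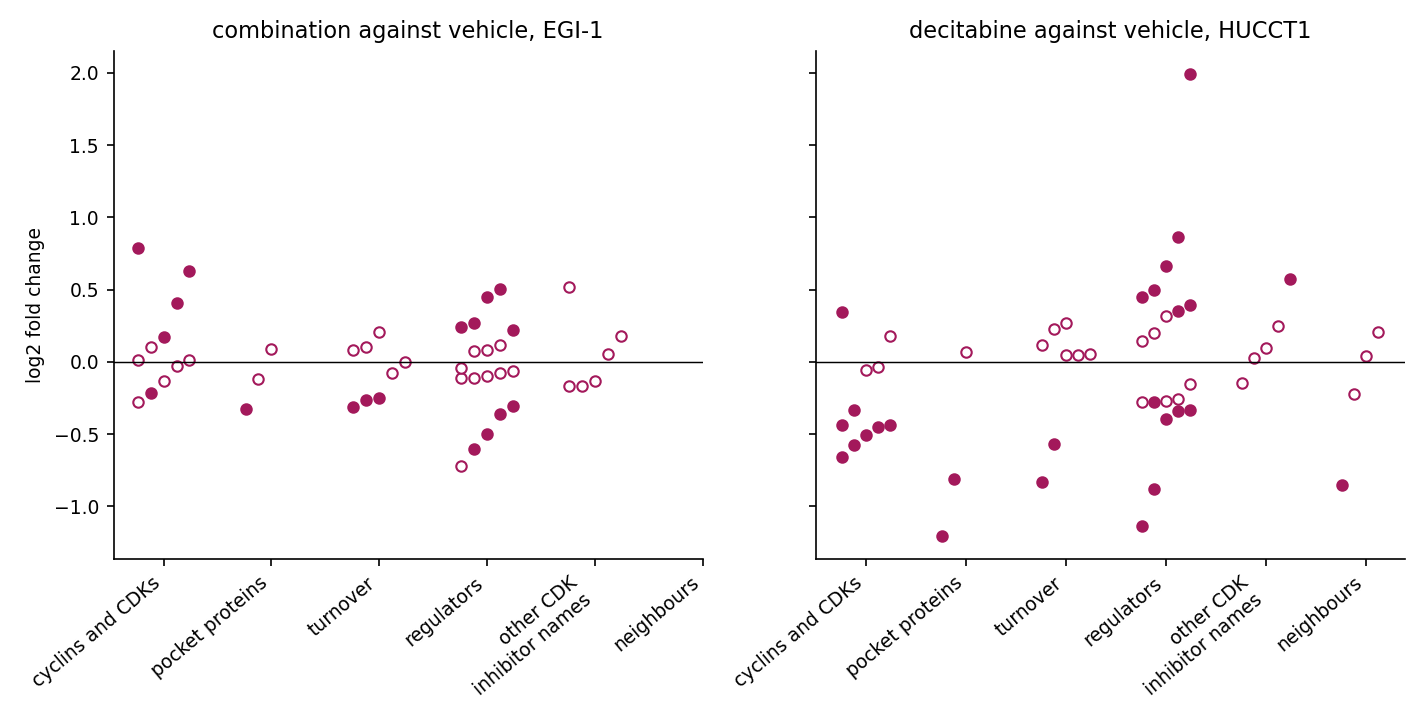
Log2 fold changes of the listed genes of the CDK inhibitor pathway (one point a gene, horizontal offsets only to separate points) with the combination against vehicle in EGI-1 (left) and with decitabine against vehicle in HUCCT1 (right), filled where the adjusted p was under 0.05. Of 11 cyclins and CDKs, 4 were higher and 1 lower on the left, beside 11.1% and 7.61% of all genes. On the right 1 was higher and 7 lower, beside 19.6% and 13.9% of all genes. No chromosome 9 neighbour was tested on the left.

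For each member tested in EGI-1, the genes of most like pattern were those with the smallest root mean square difference of log2 CPM, centred on vehicle, over the 8 EGI-1 libraries and 13600 genes. For CDKN1A these were MOXD1 (0.088), PAPSS2 (0.089) and LRG1 (0.090), whose combination means lay 1.06, 1.07 and 1.12 above vehicle. For CDKN1B they were MACROH2A2 (0.030), ZDHHC21 (0.031) and ADGRF1 (0.037). For CDKN2C they were CYP27C1 (0.073), SOX4 (0.078) and APOBEC3G (0.079), and for CDKN2D ZNF524 (0.077), QRFPR (0.096) and SLC9A8 (0.098). The vehicle libraries enter every one of these differences. Without combination replicate 2, 2 of the 3 genes named for CDKN1A, 2 of 3 for CDKN1B, and 1 of 3 each for CDKN2C and CDKN2D were again among the 3 most alike.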

How the data were processed

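The 12 libraries were measured by RNA sequencing, 2 in each of 6 arms set by the sample labels. The authors deposited 1 table of raw counts, whole numbers without normalization, for 60651 genes, of which 60481 were matched to a symbol. The paper's methods name STAR and RSEM on GRCh38, while the submitters' processing notes name fastp, Trim Galore, HISAT2 and featureCounts, with no versions. The annotation, strand use and treatment of multi-mapping reads are not given in the sources used here. HUCCT1 libraries are described in the labels only.

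Tests used edgeR (version 4.0.16, under R 4.3.3; filterByExpr by arm, TMM, robust quasi-likelihood, two-sided, Benjamini-Hochberg, adjusted p under 0.05), with the 8 EGI-1 libraries in 1 model (22406 genes), the 4 HUCCT1 libraries in another (22479) and all 12 for comparisons between lines (25096). DESeq2 1.42.0, other scalings, no filter, replicate blocks and leaving out libraries were alternatives. The canonical length, and the listed and most alike genes without combination replicate 2, were added after seeing the data. Nothing says that replicates were separate cultures, so p-values measure only the spread between these libraries. Levels are CPM, and an arm at 0 was set at a floor of 3 counts. On simulated data, changes were set only in genes with a mean count of at least 100. There the EGI-1 combination fit recovered 95 of 100 simulated 2-fold changes and 78 of 100 at 1.5-fold, with 20 false calls among 21876 genes. The HUCCT1 fit recovered 93 and 59, with 15 false calls among 21685. Every member tested in a comparison was named in it, together with up to 4 called genes per list with the largest changes and the 3 genes most like each member. Members and lists were chosen with earlier results of these data known.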

Additional observations from a re-analysis of the deposited data

Results flagged for a closer look

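The effect of decitabine differed between HUCCT1 and EGI-1, by the interaction term over 12 libraries, for CDKN2C and CDKN2D and for 13 of the 21 pathway genes named above that were tested for it. Those were named for large changes, many of them with decitabine in HUCCT1, which is one side of this difference. Over all 51 listed pathway genes tested 17 were called, beside 15.9% of all genes. All values are log2 differences, HUCCT1 minus EGI-1. Among the members, the difference was -1.15 for CDKN2C, whose own effects were -1.25 in HUCCT1 and -0.09 in EGI-1, and 1.22 for CDKN2D, with 1.11 and -0.10. The difference for the cyclins and CDKs was -0.50 for CDK2, -0.49 for CCNA2 and -0.43 for CCNB2. For the pocket proteins it was -1.13 for RB1 and -0.86 for RBL1, and for the turnover genes -0.77 for SKP2 and -0.38 for DTL. For the regulators it was -1.09 for TP73, 0.44 for MYC, 0.69 for FOXO1, -0.98 for ID1 and 4.21 for TP63. The TP63 value rests on an EGI-1 level of at most 11 counts and depends on the prior count of the fit. For CDKN2AIPNL it was 0.67. The adjusted p of these 15 differences lay between 1.8e-05 and 0.034. Line and dose cannot be told apart in any of them. Groups of 2 libraries were too small for a check of single outlying values.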

How the results depend on the processing

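CDKN1A kept its sign and its call in the combination against vehicle, decitabine and talazoparib and in HUCCT1 under every alternative run, as did CDKN2C and CDKN2D in HUCCT1 and in the difference between the lines. Upper-quartile scaling moved the median log2 fold change of all genes between the vehicle arms of the 2 lines from -0.01 to -0.13, and CDKN2D there from 0.37 to 0.25. No sign of a member turned with scaling. Counts of genes called moved more. Without the filter on low counts they were 335 for decitabine in EGI-1 (122 with the filter), 897 for the combination against talazoparib (431) and 71 for the departure from the added effects (36). With only the 4 libraries of both arms they were 43 for decitabine, with 0 members called, 1851 for talazoparib (923), with 2 members, 963 for the combination against decitabine (1720) and 700 against talazoparib.

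The replicate numbers share only a number: the correlation of same-numbered deviations lay between -0.22 and 0.15 in EGI-1 and was 0.23 in HUCCT1, where only 1 pair of arms exists. With a replicate block by the labels the counts were 60 for decitabine and 249 for the combination against talazoparib in EGI-1, and with a replicate block by the series in the library names 75 for decitabine. In HUCCT1 the replicate block gave 10136 genes and all 6 members, CDKN2A included (adjusted p = 1.3e-05 by edgeR).

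Leaving out 1 library gave 1850 to 2976 genes for the combination against vehicle, 22 to 417 for decitabine with 0 to 1 members, and 247 to 500 for talazoparib with 0 to 1 members. It gave 853 to 2544 against decitabine with 1 to 3 members, 111 to 440 against talazoparib, and 27 to 85 for the departure with 0 to 1 members. For HUCCT1 it left 3 to 5 members called, and for the difference between the lines 2540 to 3761 genes. The lowest counts came without vehicle replicate 2 in EGI-1 (1850, 22, 27 and 2540), vehicle replicate 1 (247), combination replicate 2 (853) and talazoparib replicate 2 (111). A lone library left in an arm is assumed to vary like the others. The sign turned only for members that had not passed. With decitabine in EGI-1, CDKN2C ranged from -0.30 to 0.10 (0.03 without vehicle replicate 2) and CDKN2D from -0.22 to 0.013. Against talazoparib CDKN2D ranged from -0.37 to 0.10. In the departure CDKN2C ranged from -0.38 to 0.016 and CDKN2D from -0.26 to 0.20, with 0.06 without combination replicate 1 and 0.09 without decitabine replicate 2. On simulated data the HUCCT1 fit recovered 59 of 100 changes of 1.5-fold, set in genes with a mean count of at least 100. The causes of these movements were not tested.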
